A study of Mus musculus with 6 samples.

Results

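Adipoq, Retn, Lep, Cfd, Rbp4, Angptl4, Nrg4, Bmp8b, Apln and Fgf21 encode adipokines and other factors that white or brown fat cells release, and they were chosen by name. All 10 were found among the 26264 gene symbols of the count tables. By their titles all 6 libraries came from immortalized brown preadipocytes or adipocytes of interscapular brown fat. The paper's methods take preadipocytes from the stromal vascular fraction of wild-type Bl6N mice. They describe immortalization with a viral large T antigen. The titles give no strain, and whether the libraries share 1 cell preparation was not tested. A pretreatment of 48 h with FGF8 at 5.5 nM was set against untreated cells (vehicle, by the study's methods). Harvest took place at its end (day 0), or 3 or 9 days later. All cells of days 3 and 9 had received an induction medium with insulin, triiodothyronine, IBMX, dexamethasone, indomethacin and rosiglitazone, and then insulin, triiodothyronine and rosiglitazone. The titles call the last time point D7, which is day 9 when days are counted from the end of the pretreatment, as they are here. A growth description filed with the samples speaks of primary white preadipocytes, whereas the titles speak of immortalized brown cells, and the latter name is used here. Each of the 6 conditions was 1 library, so a gap between both treatments on a day has no replicate check.

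Adipose tissue is an endocrine organ. White fat cells release adiponectin (Adipoq), leptin (Lep), resistin (Retn), the complement protease factor D or adipsin (Cfd) and the retinol carrier Rbp4, which act on appetite, insulin sensitivity and immunity. Brown fat cells release factors such as neuregulin 4 (Nrg4), Fgf21 and Bmp8b, often called batokines, and Angptl4 and apelin (Apln) act on lipoprotein lipase and on vessels. Most adipokine genes are silent in preadipocytes and are switched on as lipid-filled cells form, and PPARG, the receptor of rosiglitazone, is a known activator of several of them.

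Libraries held 16403254 to 38551551 counts. Counts were divided by size factors that make the libraries comparable (normalized counts), and differences are given as log2 of the normalized count plus 1, FGF8 minus untreated or later minus earlier day. Brackets hold a 95% exact binomial interval of the ratio of the 2 counts, which covers counting error only. A gene was counted as higher or lower when it differed at least 2-fold and its 2 libraries averaged 20 normalized counts or more, the minimum level. Both day 0 libraries stood apart from the 4 later ones in genes chosen after their values were seen. Xist had 2530 (untreated) and 5837 (FGF8) counts at day 0 and at most 26 later, Ifi202b had 10511 and 5711 against at most 1, and Gbp2b had 4837 and 935 against at most 1, while 4 Y-linked genes held between 0.0289% and 0.0345% of all counts in each of the 6 libraries. Day of harvest and whatever else set the day 0 libraries apart cannot be told apart, so values against day 0 carry this limit, and tests are also given without day 0. Labels were checked against marker lists. The summed normalized count of 10 adipocyte markers was 15336 in untreated and 13116 in FGF8 cells at day 0, and at least 378192 in the later libraries. Ucp1, the uncoupling protein of brown fat, had 128630 and 122501 counts at day 9.

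Start-site sequences are shown for the members with the widest FGF8 differences on a day. RefSeq's table of promoters (build GRCm38.p6, 250 bases before to 50 after a start) held 10 entries for 9 of the 10 members, with no entry for Angptl4. The windows were searched on both strands for a TATA box (TATAAA), a GC box (GGGCGG), an E-box (CACGTG), an AP-1 site (TGANTCA), a cAMP response element (TGACGTCA), a C/EBP site (TTGCNNAA), a C/EBP-ATF site (TGATGNAA) and a nuclear receptor half-site (AGGTCA), and capitals mark the matches. Below are Fgf21, the member with the widest difference at day 0 (chr7:45615441-45615740, minus strand), the downstream of 2 starts of Rbp4, higher in FGF8 cells on all 3 days (chr19:38124762-38125061, minus strand), Nrg4, the widest at day 3 (chr9:55283576-55283875, minus strand), and Lep (chr6:29059971-29060270, plus strand) and Cfd (chr10:79890603-79890902, plus strand), both lower in FGF8 cells at day 9.
Fgf21: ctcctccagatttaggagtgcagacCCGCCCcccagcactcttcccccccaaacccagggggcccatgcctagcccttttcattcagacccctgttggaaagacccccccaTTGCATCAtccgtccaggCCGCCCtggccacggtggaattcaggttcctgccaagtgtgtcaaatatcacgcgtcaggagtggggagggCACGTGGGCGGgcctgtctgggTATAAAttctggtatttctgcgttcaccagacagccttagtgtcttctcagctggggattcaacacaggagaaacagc
Rbp4: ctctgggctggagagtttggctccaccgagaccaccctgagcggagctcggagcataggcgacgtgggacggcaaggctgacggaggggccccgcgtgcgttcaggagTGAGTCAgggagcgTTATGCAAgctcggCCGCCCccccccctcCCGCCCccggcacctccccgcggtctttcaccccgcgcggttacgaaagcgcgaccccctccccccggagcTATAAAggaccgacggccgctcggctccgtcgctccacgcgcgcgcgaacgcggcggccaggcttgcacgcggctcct
Nrg4: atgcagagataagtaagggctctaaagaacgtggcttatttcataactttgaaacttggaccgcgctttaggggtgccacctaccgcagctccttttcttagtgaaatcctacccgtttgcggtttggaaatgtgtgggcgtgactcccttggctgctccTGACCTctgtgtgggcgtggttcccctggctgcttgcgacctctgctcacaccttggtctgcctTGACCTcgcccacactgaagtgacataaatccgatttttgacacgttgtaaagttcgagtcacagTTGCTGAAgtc
Lep: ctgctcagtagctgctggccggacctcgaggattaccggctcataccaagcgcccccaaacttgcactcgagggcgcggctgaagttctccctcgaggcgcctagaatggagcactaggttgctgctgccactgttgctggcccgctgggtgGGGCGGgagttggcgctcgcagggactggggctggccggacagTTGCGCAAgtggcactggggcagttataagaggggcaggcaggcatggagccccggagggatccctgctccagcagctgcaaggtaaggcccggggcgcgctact
Cfd: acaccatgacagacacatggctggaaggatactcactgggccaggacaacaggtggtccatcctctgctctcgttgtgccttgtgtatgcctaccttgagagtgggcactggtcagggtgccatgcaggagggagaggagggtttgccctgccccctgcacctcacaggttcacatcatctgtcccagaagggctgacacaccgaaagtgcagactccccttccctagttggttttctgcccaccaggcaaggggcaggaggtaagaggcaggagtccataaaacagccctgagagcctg

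The Fgf21 window held a TATA box 28 bases before the start, an E-box 50 bases before it that overlaps a GC box, 2 further GC boxes and a C/EBP-ATF match. Over the 32851 promoters of the table, 13.6% held the TATA letters, 7.15% the E-box, 35.7% the GC box and 3.97% the C/EBP-ATF letters. The Rbp4 window held a TATA box, 2 GC boxes, an AP-1 match (7.81% of promoters) and a C/EBP match (10.8%). Nrg4 held 2 half-sites (16.3%) and a C/EBP match, Lep held a GC box and a C/EBP match, and Cfd held none of the 8 motifs. Of the windows not printed, Bmp8b and Apln each held a GC box, the upstream Rbp4 start held a C/EBP-ATF match, and Adipoq and Retn held none. No window held the cAMP response element (1.79%). These are matches of letters only.

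**Figure D1:**
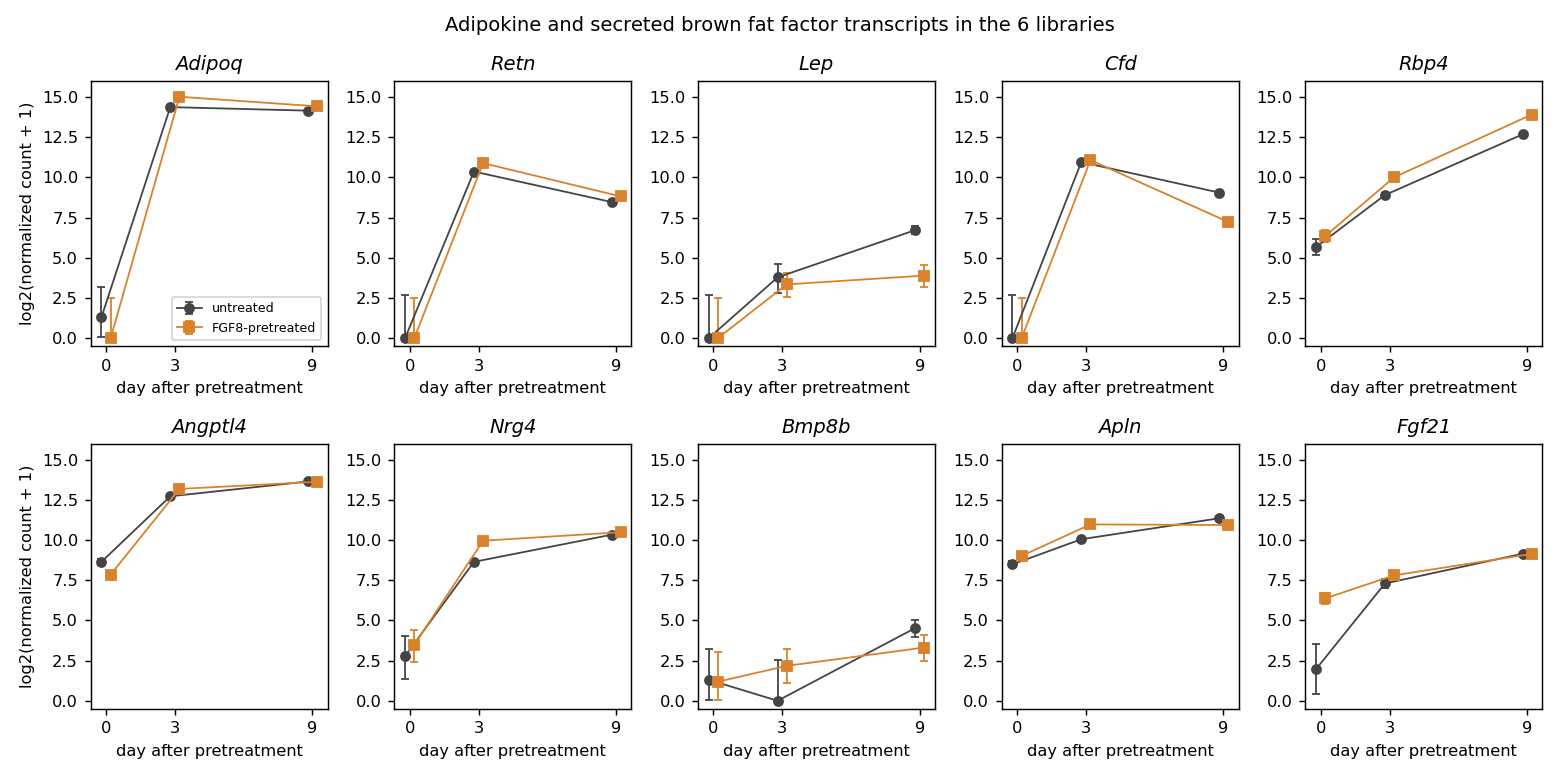
Log2(normalized count + 1) of each member (y axis) against days after the pretreatment (x axis) in untreated (grey circles) and FGF8-pretreated cells (orange squares), 1 library per point, with bars for the 95% exact Poisson interval of the count. Adipoq, Retn, Lep and Cfd start at 0 or 1 counts, Fgf21 at day 0 and Lep and Cfd at day 9 show the widest gaps between the treatments, and Rbp4 is higher in FGF8 cells on each day.

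Before differentiation the classical adipokines were nearly silent. Adipoq had 1 count in untreated and 0 in FGF8 preadipocytes, and Retn, Lep and Cfd had 0 in both. Rbp4, Angptl4, Apln and, in the FGF8 library, Fgf21 had 34 counts or more at day 0, while Nrg4 (4 and 8 counts) and Bmp8b (1 and 1) were low. Folds against a library at 0 counts are given against a floor of 3 counts per library. By day 3 all but Lep and Bmp8b had 123 counts or more in both treatments. In bulk RNA fewer cells of a type and less RNA per cell cannot be told apart, and this holds for each difference below.

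From day 0 to day 3, 8 of the 8 members that passed the minimum level were at least 2-fold higher in untreated cells and 8 of 8 in FGF8 cells, where 19.5% and 24.1% of all genes tested were higher and 15.5% and 22.0% lower. Members that are silent at day 0 and pass only through day 3 had to be higher, so these counts are descriptions. Lep and Bmp8b did not pass. Against that floor at day 0, Retn was at least 299-fold higher in untreated and at least 494-fold in FGF8 cells, Cfd at least 450-fold and 563-fold, and Adipoq at least 8654-fold in FGF8 cells. Lep, with 10 and 13 counts at day 3, was at least 2.89-fold and 2.38-fold higher. These bounds rest on the floor and leave counting error out, and the counting intervals of Lep begin at 1.94-fold and 1.67-fold. The quasi-likelihood test of edgeR, with treatment as the second factor over the 6 libraries, called 8 of the 9 members it could test as higher at day 3 than at day 0 (26.2% of all genes) and 9 of 9 at day 9 against day 0 (29.2%). Fgf21 missed the threshold at day 3 in edgeR, with a log2 difference of 2.51 (standard error 0.97, adjusted p = 0.0868, between 0.00909 and 0.0942 over 3 alternatives), and Bmp8b was too low to test. The call for Lep at day 3 in edgeR stood close to the threshold (adjusted p = 0.0472, between 0.0108 and 0.0522 over 3 alternatives).

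Between day 3 and day 9 the members parted. Both days came after the induction medium, and their libraries are not of the kind that stood apart. The paper describes the day 3 cells as not yet differentiated and the day 9 cells as mature adipocytes. The adipocyte markers summed to 378192 at day 3 and 1020160 at day 9 in untreated cells, and to 804614 and 1070140 in FGF8 cells. Their median log2 difference over this step was 0.55 in untreated and 0.002 in FGF8 cells. From day 0 to day 3 it had been 6.29 and 7.99, with the limit on day 0 given above. In untreated cells 5 members were at least 2-fold higher at day 9, where 8.77% of genes tested were, and 2 were lower, where 4.42% were. In FGF8 cells 2 were higher (8.16% of genes) and 2 lower (5.40%). Rbp4 was 13.7-fold higher in untreated and 15.0-fold in FGF8 cells, and Fgf21 was 3.63-fold and 2.52-fold higher. Lep (8.20-fold), Nrg4 (3.23-fold) and Apln (2.47-fold) passed the 2-fold rule in untreated cells only, and the difference between the treatments was not tested. Cfd was 3.72-fold lower in untreated and 14.5-fold lower in FGF8 cells, and Retn 3.73-fold and 4.21-fold lower, so that both had their highest values at day 3. Over the 6 libraries edgeR called 1 member between day 3 and day 9 (0.0618% of all genes were called as higher), Rbp4, with a log2 difference of 3.82 (standard error 0.21, adjusted p = 0.0249, between 2.76e-49 and 0.0280 over the alternatives). Without the day 0 libraries, an alternative chosen after seeing the data with 1 residual degree of freedom, edgeR called 5 members: Rbp4, Nrg4 and Fgf21 as higher (11.0% of genes were) and Cfd and Retn as lower (10.2%).

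Levels of different genes were compared as normalized counts per kilobase of annotated exon. At day 0 Apln (94.7) and Angptl4 (89.2) led in untreated cells and did not differ beyond counting error (ratio 1.06, interval 0.89 to 1.27). Per kilobase of the longest transcript Angptl4 (121) stood above Apln (94.8) in those cells. In FGF8 preadipocytes Apln led with 137, above Fgf21 beyond counting error (ratio 2.28, interval 1.75 to 3.01). Fgf21 (60.2), Rbp4 (56.5) and Angptl4 (51.2) came next, and neighbours among these 3 did not differ beyond counting error. Adipoq led at day 3 in both treatments, with 9343 in untreated and 14597 in FGF8 cells, followed by Cfd with 2058 and 2244 and Angptl4 with 1509 and 2073. Per kilobase of the longest transcript Angptl4 (2819) stood above Cfd (2263) in the FGF8 cells. In FGF8 cells Rbp4 (721) and Retn (700.4) did not differ beyond counting error at that time, but per kilobase of the longest transcript Retn was above Rbp4 (1326 against 844). At day 9 untreated cells kept Adipoq in front.

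The untreated order at day 9 was Adipoq (8021), Rbp4 (4589), Angptl4 (2857), Apln (692), Cfd (553), Fgf21 (417), Retn (131), Nrg4 (91.2), Lep (31.1) and Bmp8b (3.75). In FGF8 cells of that day Rbp4 (10793) stood above Adipoq (9669), at a ratio of 1.12 (interval 1.10 to 1.14), and this order turned when the longest annotated transcript replaced the union of exons as the length. Cfd in those cells had 155, which did not differ from Retn (166) beyond counting error, whereas per kilobase of the longest transcript Cfd had 156 and stood below Retn (315) and Nrg4 (175). Lep with 4.12 and Bmp8b with 1.52 came last.

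**Figure D2:**
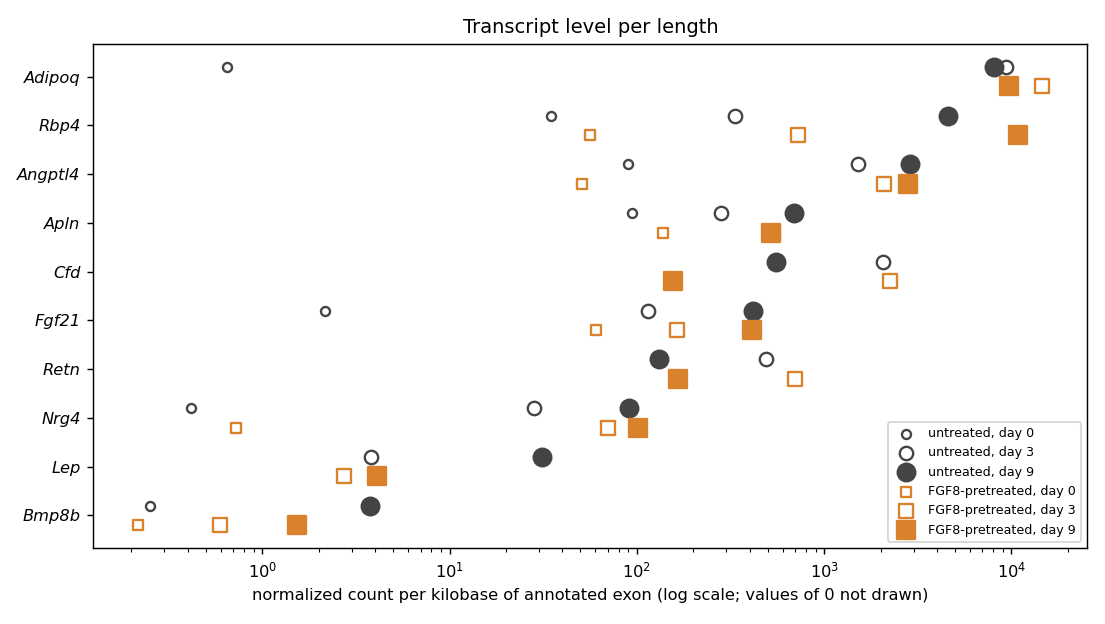
Normalized count per kilobase of annotated exon (x axis, log scale) of each member (y axis, ordered by untreated day 9) in the 6 libraries, with circles for untreated and squares for FGF8-pretreated cells, symbol size by day and filled symbols for day 9. Adipoq spans 8021 to 14597 over the 4 later libraries, whereas Rbp4 spans 334 to 10793 and Lep 2.72 to 31.1.

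FGF8 against untreated cells was the comparison the study was built for, whether a pretreatment of preadipocytes leaves a trace in the adipocytes made from them. At day 0, 1 of the 4 members that passed the minimum level was at least 2-fold higher and 0 lower, against 7.27% and 10.8% of genes tested. At day 3, 2 of 8 were higher and 0 lower, against 3.80% and 12.1%. At day 9, 1 of 9 was higher and 2 lower, against 1.12% and 8.74%. Fgf21 at day 0 and Lep at day 9 reached the minimum level through 1 library alone, as Lep did between days 3 and 9 in untreated cells, so these counts are descriptions and nothing is read from them against the background. Medians over the members that passed were 0.61, 0.58 and -0.01 on the log2 scale, beside 0.05, 0.08 and 0.08 over all genes. A shared FGF8 effect over the 3 days was called by edgeR for 0 of 9 members (1.27% of genes were called), with 1 member at an unadjusted p under 0.05, and by DESeq2 for 1 (12.3% of genes). The same 6 libraries serve all these comparisons.

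**Figure D3:**
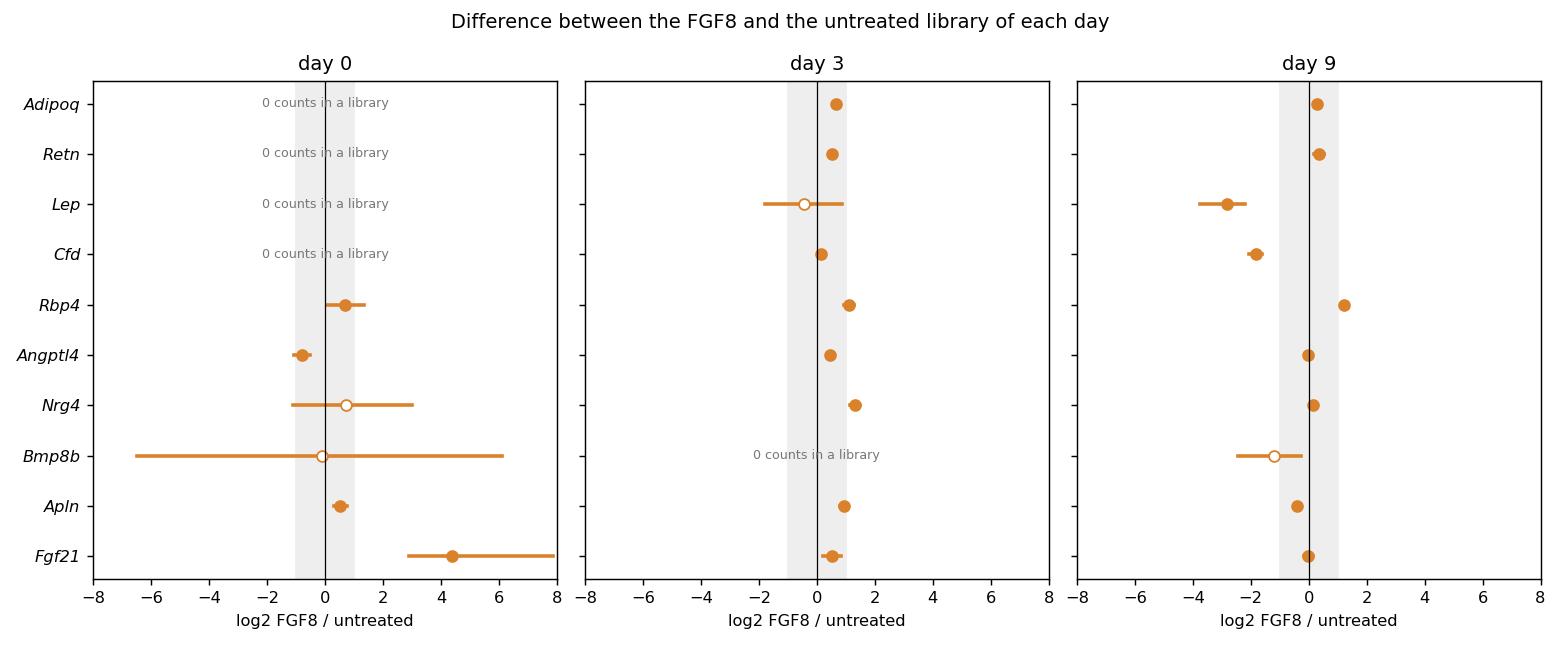
Log2 ratio of the FGF8 to the untreated library (x axis) for each member (y axis) on days 0, 3 and 9, with lines for the 95% exact binomial interval of the 2 counts, open circles for members under the minimum level and a grey band for differences under 2-fold. Points outside the band that passed the level are Fgf21 at day 0 (4.40), Rbp4 (1.11) and Nrg4 (1.32) at day 3, and Rbp4 (1.23), Cfd (-1.83) and Lep (-2.83) at day 9.

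Fgf21, a hormone that acts through FGF receptors with the co-receptor beta-klotho, had the widest difference of any member in preadipocytes. Its gene lies at chr7:45263301-45266963 on the minus strand (GRCm39). Counts were 2 in untreated and 64 in FGF8 cells at day 0, 123 and 318 at day 3, and later 800 and 692 at day 9, or 2.94 and 81.9, 157 and 223, and 568 and 563 normalized. The log2 difference was 4.40 [2.89, 7.88] at day 0, where the ratio of 27.9 rests on 2 untreated counts and has an interval of 7.41 to 235. It was 0.51 [0.21, 0.82] at day 3 and -0.01 [-0.16, 0.14] at day 9. At day 9 no difference was detectable beyond counting error. With a minimum mean of 100 Fgf21 no longer passed at day 0. The exons of Fgf21 share 245 bases (18.0% of its annotated exon) with Fut1, a fucosyltransferase gene on the other strand, which had 2 and 53 counts at day 0, 7 and 14 at day 3, and later 27 and 53 at day 9. Both genes were thus higher in the FGF8 library at day 0, and since the strand setting of the counting is not given in the sources used here, how reads of the shared stretch were split is uncertain. Of adipocyte markers, 2 of the 7 that passed the level at day 0 were above 0 in this comparison and their median was -0.25.

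Rbp4, the retinol carrier of blood, was the member with the steadiest difference. It lies at chr19:38105066-38113754 on the minus strand. Normalized counts were 49.9 in untreated and 80.7 in FGF8 cells at day 0, 477 and 1029 at day 3, and later 6548 and 15402 at day 9. Log2 differences of 0.68 [0.07, 1.34], 1.11 [0.94, 1.28] and 1.23 [1.20, 1.27] were each above 0 beyond counting error. At day 3 the 2-fold call of Rbp4 was lost under scaling by total counts (0.9994). In edgeR the difference shared by the 3 days was 1.03 (standard error 0.16, unadjusted p = 0.00151), and its adjusted p of 0.0659 missed the threshold, with a range of 5.27e-05 to 1.00 over 7 alternatives. It was called without the day 0 libraries in edgeR (log2 difference 1.15, adjusted p = 0.00424, when 15.5% of genes were called), by DESeq2 and without the filter on low counts. The exons share 222 bases (15.6%) with Ffar4, a fatty acid receptor gene on the other strand, whose counts were 0 and 0, then 244 and 2143, then 6341 and 8371, with log2 differences of 2.27 at day 3 and 0.60 at day 9. Transthyretin (Ttr), which carries Rbp4 in plasma, had 0 counts in all 6 libraries.

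Nrg4, a ligand of ERBB receptors made by brown fat, differed at day 3. It lies at chr9:55121336-55234128 on the minus strand. Counts were 4 and 8 at day 0, and normalized counts were 399.6 in untreated and 996 in FGF8 cells at day 3 and 1290.5 and 1439.7 at day 9. FGF8 cells were 2.49-fold higher at day 3 (interval 2.20 to 2.83), a log2 difference of 1.32, and differed by 0.16 [0.06, 0.25] at day 9. Its exons share 1595 bases (11.3%) with Fbxo22, which differed by 0.49 at day 3. Nrg1, a related neuregulin, was lower in FGF8 cells on each day (-3.89, -1.92 and -1.98) and Nrg2 was higher at days 0 and 3 (2.10 and 1.55) by the 2-fold rule, so the 3 neuregulins did not share a direction. The receptor Erbb4 had 0 counts in all libraries.

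Adiponectin and resistin, hormones with opposite links to insulin sensitivity, were modestly higher after FGF8. Adipoq (chr16:22964106-22976810, plus strand) had 21274 normalized counts in untreated and 33237 in FGF8 cells at day 3, and later 18265 and 22015 at day 9. On the log2 scale it differed by 0.64 [0.62, 0.67] and then by 0.27 [0.24, 0.29]. Retn (chr8:3705324-3710689, plus strand) had 1317 and 1896 at day 3 and 353 and 450.4 at day 9, with log2 differences of 0.53 [0.42, 0.63] and 0.35 [0.17, 0.53]. All 4 values are under 2-fold. At day 3 all 10 adipocyte markers were also above 0 in this comparison, 3 of them at least 2-fold, with a median of 0.80 and a summed level of 378192 in untreated and 804614 in FGF8 cells, and 8 of 8 brown adipocyte markers that passed had a median of 1.06. At day 9 the adipocyte markers summed to 1020160 and 1070140, with a median of 0.20 and none past 2-fold. The part of these markers in the members' differences was not tested.

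Cfd and Lep were lower in FGF8 cells at day 9. Adipsin starts the alternative complement pathway by cleaving factor B, and its gene lies at chr10:79726668-79728496 on the plus strand. Cfd had 1984 normalized counts in untreated and 2163 in FGF8 cells at day 3 and 533 and 149.6 at day 9. The log2 difference was 0.12 [0.04, 0.21] at day 3 and -1.83 [-2.07, -1.60] at day 9, a 3.56-fold lower level. At day 9 the adipocyte markers were all within 2-fold, as given above, and 7 of 8 preadipocyte markers were at least 2-fold lower in FGF8 cells. The part of either list in the Cfd value was not tested.

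Leptin, the satiety hormone, lies at chr6:29060216-29073877 on the plus strand. Lep had 0 counts in both day 0 libraries, 10 in untreated and 13 in FGF8 cells at day 3, and later 147 and 17 at day 9. The normalized values were 12.7 and 9.13 at day 3 and 104 and 13.8 at day 9. The log2 difference at day 9 was -2.83 [-3.73, -2.19], a 7.55-fold lower level, so Lep was low everywhere except in the untreated library of day 9. With a minimum mean of 100 Lep no longer passed, which ends this call. In edgeR the FGF8 difference shared by the days was -1.86 for Lep (standard error 0.77, adjusted p = 0.255, between 0.0608 and 1.00 over 6 alternatives) and -0.85 for Cfd (standard error 0.52, adjusted p = 0.394, between 0.181 and 1.00 over 7), and both missed the threshold. The leptin receptor Lepr had at most 6 counts in any library.

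Angptl4 and Apln did not keep 1 direction. Angptl4, a secreted inhibitor of lipoprotein lipase and a PPAR target, lies at chr17:33992724-34000804 on the minus strand. It had 401 normalized counts in untreated and 230.4 in FGF8 cells at day 0, 6787 and 9324 at day 3, and later 12848 and 12677 at day 9. Its log2 difference moved from -0.80 [-1.08, -0.52] to 0.46 [0.41, 0.50] and then to -0.02 [-0.05, 0.01]. Its sign at day 9 turned to 0.01 under TMM scaling, so no direction is given for that day.

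Apln, the ligand of the apelin receptor on vessels, lies at chrX:47114019-47123775 on the minus strand. Normalized counts were 358 and 518 at day 0, 1063 and 2013 at day 3, and later 2620.0 and 1967 at day 9. The log2 difference was 0.53 [0.30, 0.77], 0.92 [0.81, 1.03] and -0.41 [-0.49, -0.34]. None of these reached 2-fold. Aplnr, the receptor, had at most 7 counts. Of 8 endothelial markers 2, 2 and 1 passed the minimum level on the 3 days, all at least 2-fold lower in FGF8 cells. Their medians were -5.07, -2.65 and -2.62, and 10.8%, 12.1% and 8.74% of all genes tested were lower. Tek was lower on each day (-2.92, -2.61 and -2.62). In edgeR Tek was called for the shared difference (-2.80, adjusted p = 0.0429, between 7.69e-11 and 0.9998 over 7 alternatives). Of the 3 endothelial markers that edgeR could test, Kdr (-4.82, adjusted p = 0.102) and Pecam1 (-0.17, adjusted p = 0.926) were not called. Tie1 had at most 1 count in any library. The summed level of the list was 1639 and 85.8 at day 0, 223 and 41.4 at day 3, and later 210.1 and 38.2 at day 9. The part of that list in the apelin values was not tested.

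Bmp8b, a BMP ligand that sensitizes brown fat to sympathetic input, stayed under the minimum level in each pair. Its gene spans chr4:122998923-123025892 on the plus strand. Counts were 1, 0 and 31 in untreated and 1, 5 and 11 in FGF8 cells on days 0, 3 and 9. The log2 difference at day 9 was -1.21 [-2.44, -0.27]. Bmp8a, its closest paralog, had 14 and 5, 18 and 4, and 46 and 9 counts, and 56.9% of the exon of Bmp8b overlaps Ppie on the other strand, so the split of reads between these genes is uncertain.

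Of 12 receptor genes, 5, 6 and 6 passed the minimum level on days 0, 3 and 9, and 0 differed 2-fold between FGF8 and untreated cells on any day. Both adiponectin receptors were present in all libraries, with at least 2003 counts each. Klb, the beta-klotho co-receptor of Fgf21, had 1 count in each day 0 library, 1093 and 3871 counts at day 3 and 1807 and 2064 at day 9, with log2 differences of 0.97 and 0.39. So the transcript of the co-receptor was near absent in the preadipocytes in which Fgf21 differed most.

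Of the 8 genes that work with the members, Cfb, C3, Ero1a and Lpl differed 2-fold on at least 1 day. Cfb, complement factor B and the substrate of adipsin, had 2180 normalized counts in untreated and 173 in FGF8 cells at day 0, 17618 and 3806 at day 3, and later 19818 and 1512 at day 9, or log2 differences of -3.65, -2.21 and -3.71. In edgeR its log2 difference between FGF8 and untreated cells, shared by the 3 days, was -3.21 (standard error 0.36). Its adjusted p was 0.0451, between 5.01e-17 and 1.00 over 7 alternatives, and Cfb was the only one of 6 partners called. C3, the complement protein that factor B joins, differed by -3.75, -1.36 and -2.78 but missed the threshold in edgeR (adjusted p = 0.0899, between 9.89e-08 and 1.00 over 7 alternatives). Thus Cfb and C3 were lower in FGF8 cells on all 3 days by the 2-fold rule, and Cfd on day 9 alone. Macrophages can make complement too. Of 9 macrophage markers 3 passed the minimum level on each day, and 1, 2 and 2 of them were at least 2-fold lower in FGF8 cells, with medians of -0.57, -1.50 and -1.50. Csf1r had 45.5, 35.6 and 43.3 normalized counts in untreated and 5.12, 6.32 and 10.6 in FGF8 cells, Cd14 had 188, 127 and 75.2 against 127, 44.2 and 26.0, and Cd68 had 39.7, 81.5 and 100.1 against 35.8, 91.3 and 100.8. The defining marker Adgre1 had 0 counts in all 6 libraries and Ptprc at most 1. The summed level of the list was 234 to 313 in untreated and 141 to 191 in FGF8 cells, and its part in the complement values was not tested. Ero1a, an oxidase of the endoplasmic reticulum used in adiponectin assembly, was higher at days 0 and 3 (2.55 and 2.18) and within 2-fold at day 9 (0.84), while Erp44 and Gstk1 (DsbA-L), which also serve that assembly, were within 2-fold. Lpl, the lipase that Angptl4 inhibits, was lower at day 0 (-2.03) and within 2-fold later (0.47 and 0.20), and its anchor Gpihbp1 had at most 1 count.

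Paralogs went their own ways. C1qtnf1 and C1qtnf6, relatives of adiponectin, were lower in FGF8 cells on each day (-2.87, -1.85 and -1.59 for C1qtnf1, -1.32, -1.25 and -1.60 for C1qtnf6). C1qtnf6 was called in edgeR (log2 difference -1.41, standard error 0.13, adjusted p = 0.0429, between 3.05e-11 and 0.941 over 7 alternatives), 1 of 7 tested in that list. Angptl6 was higher on each day (3.23, 1.14 and 1.29). Angptl2 turned from 2.12 at day 0 to -1.46 at day 9, and Angptl1 was lower at days 0 and 3 (-4.16 and -1.19). Retnla, Retnlb and Retnlg, the resistin-like genes, had 0 counts in all libraries, so resistin was the one gene of that family with counts.

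Other secreted adipose factors had medians below 0. Of 28 such genes, 21, 17 and 19 passed the minimum level on days 0, 3 and 9, of which 4, 2 and 0 were at least 2-fold higher in FGF8 cells and 10, 9 and 6 lower, where 7.27%, 3.80% and 1.12% of all genes tested were higher and 10.8%, 12.1% and 8.74% lower, with medians of -0.94, -1.21 and -0.26. Igf1 differed by -6.27, -1.33 and -1.08, and Adm, the vasodilator adrenomedullin, by -2.37, -2.08 and -1.42. Fstl1 was lower by 2-fold or more on all 3 days as well. Adm and Fstl1 were the 2 of 24 tested that edgeR called, where 1.27% of all genes were, both lower (adjusted p = 0.0464 each, between 3.70e-10 and 0.817 for Adm and between 9.69e-15 and 1.00 for Fstl1 over 7 alternatives). Spp1, osteopontin, was higher by 6.69 at day 0 and 1.08 at day 3, Vegfa by 2.07 at day 0, Gdf15 by 2.79 at day 0 and Fndc5 by 1.82 at day 3. Lcn2 was lower at days 3 and 9 (-2.42 and -1.84). Preadipocyte markers were lower with them, 5, 7 and 7 of 8 at least 2-fold on the 3 days, with a summed level of 201421 and 49559 at day 0 and 198939 and 80984 at day 9. The part of these markers in the other factors' values was not tested.

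**Figure D4:**
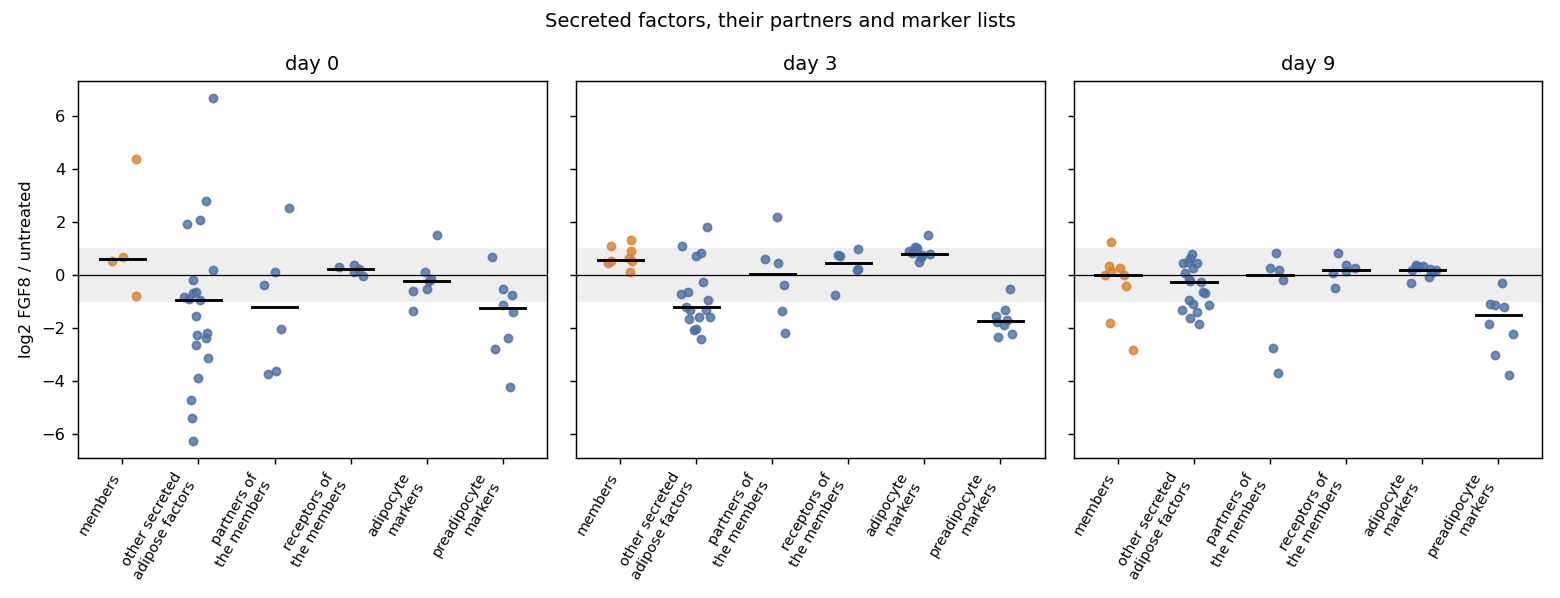
Log2 ratio of FGF8 to untreated (y axis) of each gene that passed the minimum level, by gene list (x axis), on days 0, 3 and 9, with a line at the list's median and a grey band for differences under 2-fold. The members lie at medians of 0.61, 0.58 and -0.01, the other secreted adipose factors at -0.94, -1.21 and -0.26, the adipocyte markers at 0.80 on day 3 and the preadipocyte markers at -1.27, -1.74 and -1.53.

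The genes closest in pattern to the members were found by the Euclidean distance between log2 values centred on their mean over the 6 libraries. Candidates averaged 100 normalized counts or more. The nearest 2 were Cd36 (1.39) and Cidec (1.46) for Adipoq, Fam83a (0.70) and Zbtb16 (0.79) for Retn, and Retn (1.80) and Zbtb16 (1.81) for Cfd. For Rbp4 they were Mst1 (0.67) and Cox7a1 (0.96), and for Nrg4 Endog (0.69) and 4930481A15Rik (0.73). Apln had Tspan15 (0.34) and Lrfn3 (0.35), Fgf21 had Tspan33 (1.44) and Acot4 (1.63), and Lep had Axin2 (1.97) and Syndig1 (2.01). The smallest distances belonged to Apln and the widest to Lep. Cox7a1 is a subunit of cytochrome oxidase and a brown fat marker. It had 151 normalized counts in untreated and 716 in FGF8 cells at day 3, and 3751 and 5730 at day 9. Its likeness to Rbp4 follows from how it was picked.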

How the data were processed

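Reads were trimmed with Trim Galore, aligned to mm39 (GRCm39) with HISAT2 and summarized per gene with featureCounts by the authors, who deposited raw counts for each library. Tool versions, annotation, strand setting and the treatment of multi-mapping reads are not given in the sources used here. Counts were divided by DESeq2 (version 1.42.0) size factors over the 6 libraries. Differences between 2 libraries used a pseudocount of 1, a minimum mean of 20 normalized counts and a 2-fold rule, with no test. In edgeR (version 4.0.16) a quasi-likelihood test was fitted to day and treatment (TMM, filterByExpr, Benjamini-Hochberg over all genes, adjusted p under 0.05), leaving 2 residual degrees of freedom, with days and treatments in place of replicates. Its standard errors were derived from the F statistic. The edgeR fit was also run on simulated counts. Few of their genes changed between days, unlike in these data, so that run says nothing about days in place of replicates. Of 26264 symbols, 23897 were found in GENCODE M39, which gave positions and lengths in GRCm39. Promoters came from RefSeq (GRCm38.p6).

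The members and gene lists were chosen with earlier results of these data known. Named are the members, listed genes at least 2-fold different on a day, overlapping a member or at 0, and the 2 genes nearest in pattern to each member averaging 20 normalized counts or more. Values of other listed genes are given where a list is counted. The genes nearest to Angptl4 and 1 listed gene are not reported here. Alternatives for pairs were scaling by TMM, by library totals or by size factors within the pair, another pseudocount (0.5 or 5), another minimum mean (100 or none) and another fold (1.5 or 4). Alternatives for the test were DESeq2's Wald test, edgeR with DESeq2 size factors, no filter, no day block and leaving out a day, and for length the longest transcript. Software was R 4.3.3 with Python 3.11.15, pandas 2.3.3 and scipy 1.17.1.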

Additional observations from a re-analysis of the deposited data

Results flagged for a closer look

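The log2 difference between FGF8 and untreated cells changed sign between days for 3 members, with counting intervals that lie on opposite sides of 0, and the difference between days was not tested, since each day is 1 library a treatment. Cfd stood at 0.12 on day 3 and -1.83 on day 9. Angptl4 stood at -0.80 on day 0 and 0.46 on day 3, and both day 0 libraries stood apart from the later ones, as given above. Apln stood at 0.53 on day 0 and 0.92 on day 3 and at -0.41 on day 9. The value of Cfd on day 3 was 0.02 under scaling by total counts.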

How the results depend on the processing

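With 1 library per condition no spread between replicates can be had, and counting intervals understate the error. The labels give no replicate numbers, so libraries were paired by day alone, through the day term of edgeR. Depth limits Lep, Bmp8b and the members at day 0. Of 350 log2 differences of members under an alternative, 0 changed sign past counting error and 26 left the counting interval. At day 0 the count of members past 2-fold between FGF8 and untreated cells was 1, and it was 0 at a mean of at least 100, 2 with no filter (Adipoq, 1 against 0 counts) and 3 by the 1.5-fold rule. At day 3 it was 2, and 1 under total counts (Rbp4 lost), 4 by the 1.5-fold rule and 0 by the 4-fold rule. At day 9 it was 3, and 1 by the 4-fold rule, 2 at a mean of at least 100 (Lep lost) and 4 with no filter or with size factors within the pair, and for untreated day 9 against day 3 it was 7, and 2 by the 4-fold rule. Members called between day 3 and day 9 in edgeR were 1, and 3 in DESeq2, 2 with no filter on low counts and 5 without day 0. Members called for the shared FGF8 effect in edgeR were 0, and 1 each in DESeq2, with no filter and without day 0, Rbp4 in each case. Over all genes that effect gave 185 calls, 1692 in DESeq2, 2230 without day 0, and 0 without day 3, without day 9 or with no day block. With the longest transcript as length at least 6 of 10 members kept their rank in each library. The cause of these shifts was not tested.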

Other observations

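Receptors of the members were measured over differentiation as well, where 3 of the 7 that passed the minimum level were at least 2-fold higher and 2 lower from day 0 to day 3, in each treatment. Over all genes tested 19.5% (untreated) and 24.1% (FGF8) were higher, and 15.5% and 22.0% lower. The higher ones were Klb, with 1 count in each day 0 library and 1093 (untreated) and 3871 (FGF8) at day 3, the activin-type receptor Acvr1c, with 1 and 0 and then 1110 and 3379 counts, and the adiponectin receptor Adipor2 (log2 difference 2.35 and 2.67). The lower ones were Cdh13, which binds adiponectin as T-cadherin, with 92 and 123 counts at day 0 and 6 and 1 at day 3, and Erbb3 (-1.52 and -1.39). Klb and Acvr1c passed the minimum level only through day 3, and Cdh13 only through day 0. Their directions were thus set by the filter, and the counts of receptors are descriptions. Erbb3, a neuregulin receptor, was then higher at day 9 than at day 3 (2.46 and 3.06). The day 0 libraries stood apart from the later ones in other genes.

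Together the 10 members held 0.00341% of all counts in untreated and 0.00399% in FGF8 preadipocytes, 0.135% and 0.191% at day 3, and 0.158% and 0.195% at day 9. Among the other secreted factors, Rarres2, the chemoattractant chemerin, had 28, 240 and 2801 counts in untreated and 3, 263 and 4206 in FGF8 cells on days 0, 3 and 9, at least 2-fold higher at each step in both treatments. Fndc5 (log2 difference 2.03 and 2.87 in untreated, 4.79 and 1.49 in FGF8 cells) and Vegfa (2.91 and 1.93, then 1.67 and 1.75) were also higher at each step. Lcn2, lipocalin 2, had 1 and 10 counts at day 0 and 1391 and 469 at day 3, and was lower again at day 9 (-2.40 and -1.82).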
